A study of Mus musculus with 47 samples.

Results

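Transcripts of the choroid plexus were followed through the brainstem and hippocampus libraries with 7 genes, Ttr, Folr1, Kl, Kcne2, Clic6, Kcnj13 and Aqp1, out of 35032 genes listed in either count table. The genes were chosen by their CPM values in single libraries of these data, which were known to vary widely and together, so their levels, their spread and their correlation are given as a description with no test. The choice was not based on the fits between groups, although earlier results of these data were known when it was made. All 7 genes were present in both tables.

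The libraries came from the medulla, dissected as brainstem, and from whole hippocampus of male C57BL/6 mice. TG mice were homozygous for a human transgene under the Thy1 promoter, which drives it in neurons of the central nervous system. The WT mice shared the ancestry of the transgenic line but were bred separately from it. Both genotypes received a standard diet (SD) or a high-fat diet (HFD) from weaning until about a year of age, which gave the groups WT_SD, WT_HFD, TG_SD and TG_HFD. Each group had 6 libraries per region, except brainstem WT_SD with 5, for 23 brainstem and 24 hippocampus libraries. A library is named here by its group and the replicate number that ends its label. Total counts ranged from 10020784 to 15078812 in brainstem and from 11945971 to 17328447 in hippocampus. The labels do not say which brainstem and hippocampus libraries came from the same mouse.

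The choroid plexus is a sheet of secretory epithelium around a vascular core, attached inside the brain ventricles, where it makes cerebrospinal fluid. Its epithelium moves ions and water from blood to ventricle, and it makes carrier proteins that are released into the fluid. The roof of the fourth ventricle, which carries such a plexus, lies over the medulla, and the plexus of the lateral ventricle lies along the hippocampus. The carriers among the genes are Ttr, the transthyretin that binds thyroxine and retinol-binding protein, and Folr1, the folate receptor alpha that takes folate into the fluid. Kl encodes klotho, a co-receptor for the hormone FGF23 that is also made in some neurons. The channel genes are Kcne2, a beta subunit of potassium channels, Kcnj13, the inward rectifier Kir7.1, Clic6, of the chloride intracellular channel family, and Aqp1, the water channel of the apical membrane.

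The DNA just before the transcription starts of the genes is shown, as a description, for those with a RefSeq window. Windows (RefSeq, build GRCm38.p6) were found for 4 of the 7 genes, Kcnj13, Kl, Aqp1 and Kcne2, the last with 2 alternative starts. Each sequence below is the 250 bases before the start, 5′ to 3′ on the strand of the gene. The capitals mark matches, on either strand, to motifs that were searched by their letters: TAATCC (bound by OTX factors), CCAAT (the CCAAT box), TATAAA (the TATA box) and GTTGCC (the core of the RFX site). Kcnj13, Kcne2 and Aqp1 are shown for their matches and Kl for having none. The windows are chr1:87394730-87394979 on the minus strand for Kcnj13, chr16:92292139-92292388 on the plus strand for the first start of Kcne2, chr6:55336049-55336298 on the plus strand for Aqp1 and chr5:150952357-150952606 on the plus strand for Kl.
Kcnj13: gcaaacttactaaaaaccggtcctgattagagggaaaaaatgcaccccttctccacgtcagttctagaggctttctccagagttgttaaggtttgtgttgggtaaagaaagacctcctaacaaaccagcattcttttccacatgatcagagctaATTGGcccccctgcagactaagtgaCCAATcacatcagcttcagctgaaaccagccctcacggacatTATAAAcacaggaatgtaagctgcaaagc
Kcne2: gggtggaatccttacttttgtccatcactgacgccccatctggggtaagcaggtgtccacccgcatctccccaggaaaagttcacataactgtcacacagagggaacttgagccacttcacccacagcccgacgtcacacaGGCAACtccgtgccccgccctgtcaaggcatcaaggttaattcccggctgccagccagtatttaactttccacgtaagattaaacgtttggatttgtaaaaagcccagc
Aqp1: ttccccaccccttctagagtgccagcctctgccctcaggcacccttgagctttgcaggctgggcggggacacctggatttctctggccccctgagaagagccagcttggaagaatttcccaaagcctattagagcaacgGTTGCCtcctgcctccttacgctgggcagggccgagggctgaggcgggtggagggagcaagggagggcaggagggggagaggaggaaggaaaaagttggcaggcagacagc
Kl: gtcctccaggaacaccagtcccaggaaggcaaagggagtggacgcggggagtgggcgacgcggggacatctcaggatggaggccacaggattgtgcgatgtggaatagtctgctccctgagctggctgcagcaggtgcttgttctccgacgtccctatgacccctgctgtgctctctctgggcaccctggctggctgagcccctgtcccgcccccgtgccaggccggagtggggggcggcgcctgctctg

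Kcnj13 held a TATAAA 29 bases before its start, a CCAAT on the gene's strand 71 bases before it and the same box on the other strand 96 bases before it. Aqp1 and Kcne2 each held the RFX letters, at 111 and 109 bases before the start and on opposite strands. The Kl window and the second Kcne2 window, chr16:92295366-92295615 on the plus strand, held none of the motifs. No window of the 4 genes held TAATCC. Among all 32851 promoter windows of the same length, TAATCC was found in 6.25%, CCAAT in 33.8%, TATAAA in 12.4% and GTTGCC in 10.4%. No motif was common to all 4 genes, and the windows differed in base composition, from 45.2% GC in Kcnj13 to 66.8% in Kl.

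Ttr was the gene with the largest spread in brainstem. In WT_SD its level in the 5 libraries was 15.4, 24.9, 42.2, 1398 and 1501 CPM (read counts scaled to the library total, corrected by TMM factors). In WT_HFD the lowest, median and highest levels were 22.8, 456 and 2763 CPM, in TG_SD 12.6, 827 and 2876 CPM, and in TG_HFD 6.92, 137 and 2315 CPM. All 4 groups thus overlapped almost from end to end, each with libraries near the bottom and near the top. The highest library, TG_SD replicate 2 with 35813 Ttr reads, stood 415-fold over the lowest, TG_HFD replicate 4 with 87. Within groups, the SD of Ttr on the log2 CPM scale was 3.29, ranking 1 of 13340 tested genes, against a median of 0.161 over all of them. Differences between the group means held 5.06% of the variance of Ttr over libraries, where the median tested gene had 17.2%.

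The brainstem libraries fell into 2 sets by Ttr, with an empty interval of 2.49 log2 units between 42.2 and 238 CPM. The next widest interval was 1.41. Of the 13 libraries above it, 2 were WT_SD, 4 WT_HFD, 4 TG_SD and 3 TG_HFD, so every group had libraries on both sides. The sets were read off the values and are used only to describe the data. In bulk tissue, a change in the number of choroid plexus cells and a change in RNA per cell cannot be told apart.

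The other carrier and the channel genes covered wide ranges in the same libraries. Folr1 ran from 0 CPM in 3 libraries to 14.7 CPM in WT_HFD replicate 7, at least 55.2-fold when the lowest level is set to 3 reads in 1 library. Kcne2 ran from 0 CPM in TG_HFD replicate 4 to 24.1 CPM in TG_SD replicate 2, at least 101-fold by the same floor, and its within-group SD of 2.47 ranked 4. These 2 genes were nearly silent in the libraries that were low in Ttr. Kcnj13 ranged from 0.247 to 7.39 CPM and Aqp1 from 0.239 to 12.4 CPM, with 3 reads in the lowest library of each.

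Kl and Clic6 kept a level in every brainstem library. Clic6 ranged from 1.85 to 36.9 CPM, a ratio of 19.9, and Kl from 2.23 to 76.2 CPM, a ratio of 34.2. For Kl the lowest, median and highest levels were 3.84, 10.1 and 63.0 CPM in WT_HFD, 2.87, 19.999 and 46.9 CPM in TG_SD, and 2.23, 6.50 and 76.2 CPM in TG_HFD. In WT_SD the 5 libraries had 3.76, 4.52, 4.96, 43.2 and 43.2 CPM. As for Ttr, the same libraries of each group were high, TG_HFD replicate 3 and WT_HFD replicate 7 among them, and the groups overlapped. Differences between group means held 1.66% to 5.90% of the variance of the 7 genes.

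**Figure D1:**
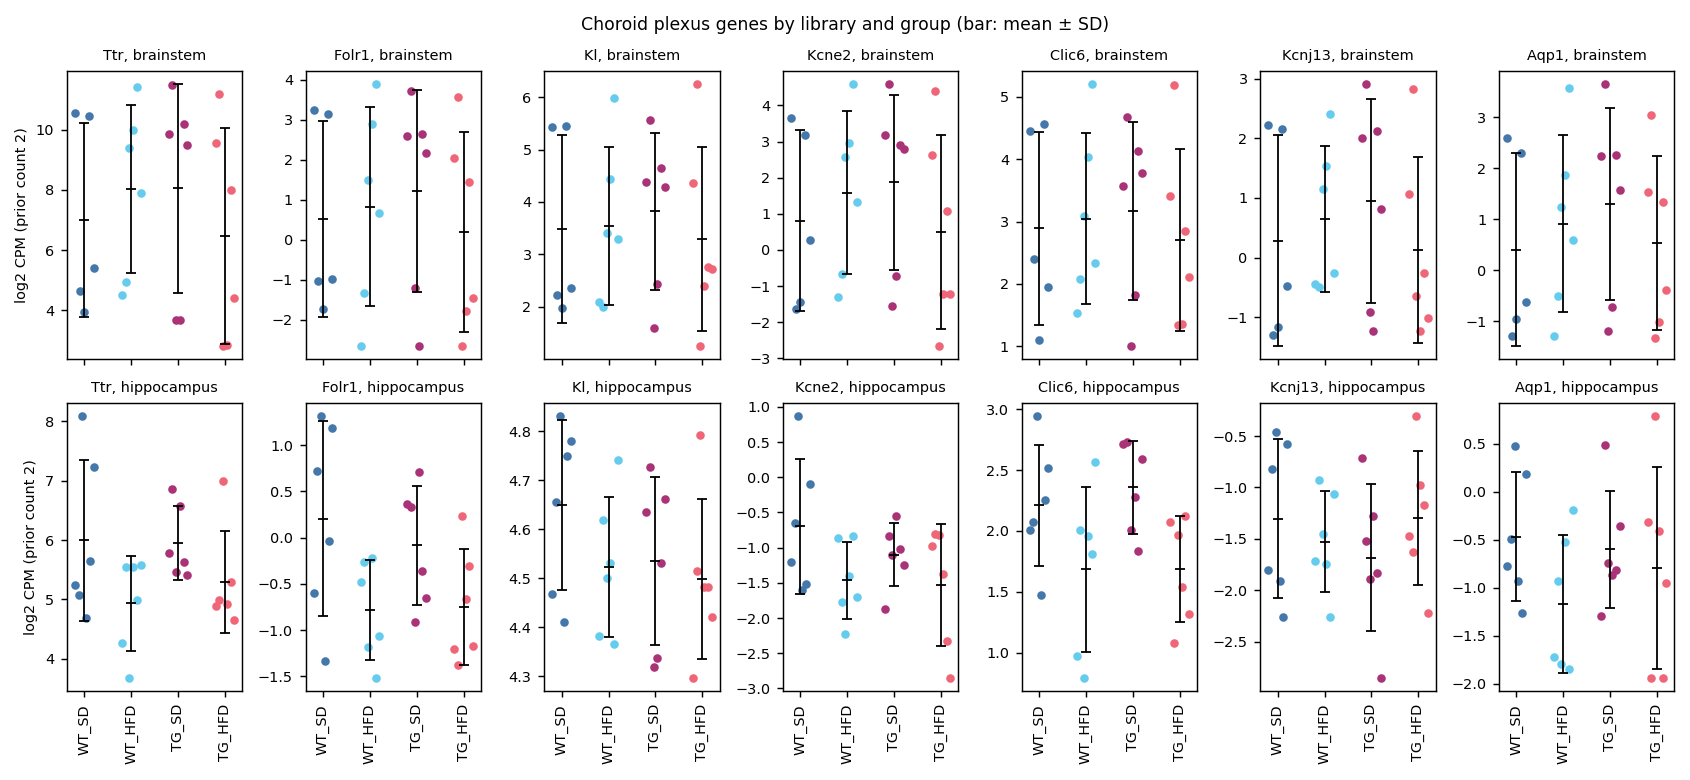
Level of each choroid plexus gene (y axis, log2 CPM with a prior count of 2) in every library of the 4 groups (x axis), with brainstem above and hippocampus below; black bars are the group mean ± SD and the y axes differ between panels. Brainstem Ttr spans 6.92 to 2876 CPM with every group on both sides of the empty interval, whereas hippocampal Kl stays between 19.5 and 28.3 CPM.

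Hippocampal levels of most of the genes were lower and varied less. Ttr had a lowest, median and highest level of 25.5, 44.0 and 271 CPM in WT_SD, 12.6, 39.1 and 47.9 CPM in WT_HFD, 42.3, 52.0 and 116 CPM in TG_SD, and 25.1, 31.1 and 127 CPM in TG_HFD. Here the groups overlapped too, and single libraries stood high, WT_SD replicates 5 and 8 with 271 and 149 CPM and TG_HFD replicate 5 with 127 CPM. The ratio of the highest to the lowest library was 21.4, and the within-group SD of 0.945 ranked 10 of 13272 tested genes, against a median of 0.136. Without WT_SD replicate 5 the ratio was 11.8.

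Clic6 ranked 30 for its within-group SD in hippocampus (0.510), with levels of 1.59 to 7.56 CPM. Kl behaved differently there. It lay between 19.5 and 28.3 CPM in all 24 libraries, a ratio of 1.45, and its within-group SD of 0.163 ranked 4500. The remaining genes were scarce: Folr1 ranged from 0.210 to 2.35 CPM, Aqp1 from 0.122 to 1.59, Kcne2 from 0 to 1.69 and Kcnj13 from 0 to 0.671 CPM. At most 32 reads of any of them were counted in a hippocampus library, so counting error enters their spread there, by an amount that was not tested.

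Per kilobase of exon, Ttr was the most abundant of the genes in every library of both regions. Its median was 213 CPM per kb in brainstem and 36.3 in hippocampus. The other brainstem medians lay close together, with Clic6 at 1.79, Kcne2 at 1.34, Folr1 at 1.10, Kl at 1.04, Aqp1 at 0.835 and Kcnj13 at 0.533 CPM per kb. Neighbours in this order overlapped in range, and the order of medians did not always hold within libraries: Folr1 exceeded Kl per kb in 5 of 23 libraries, and Aqp1 exceeded Kcnj13 in 2 of 23. In hippocampus Kl came next after Ttr with 2.45 CPM per kb, ahead of Clic6 with 0.991, and this order held in all 24 libraries with no overlap of the Kl and Clic6 ranges. Folr1 at 0.266, Kcne2 at 0.177, Kcnj13 at 0.170 and Aqp1 at 0.167 CPM per kb followed, again with overlapping ranges.

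The 7 genes rose and fell together over the brainstem libraries. Over the 21 pairs of genes, Pearson's r of log2 CPM had a median of 0.952 over 23 libraries, from 0.932 to 0.984, and Spearman's rho a median of 0.937. Taken as deviations from group means, the median r was 0.955, so the joint movement was within groups. Among the 13 libraries above the empty interval in Ttr the median r was 0.932 (0.883 to 0.984), and among the 10 below it 0.397 (−0.322 to 0.681). All points of a library share its depth and its dissection, and below the interval several genes were counted with only a few reads. In hippocampus the median r over the 21 pairs was 0.563 over 24 libraries, from 0.281 for Clic6 with Kcnj13 to 0.788 for Ttr with Folr1, and the median rho was 0.438. Leaving out the 2 libraries farthest from the median of Ttr, r of Ttr with Folr1 in hippocampus was 0.657 and r of Ttr with Kcne2 fell to 0.386 from 0.657.

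**Figure D2:**
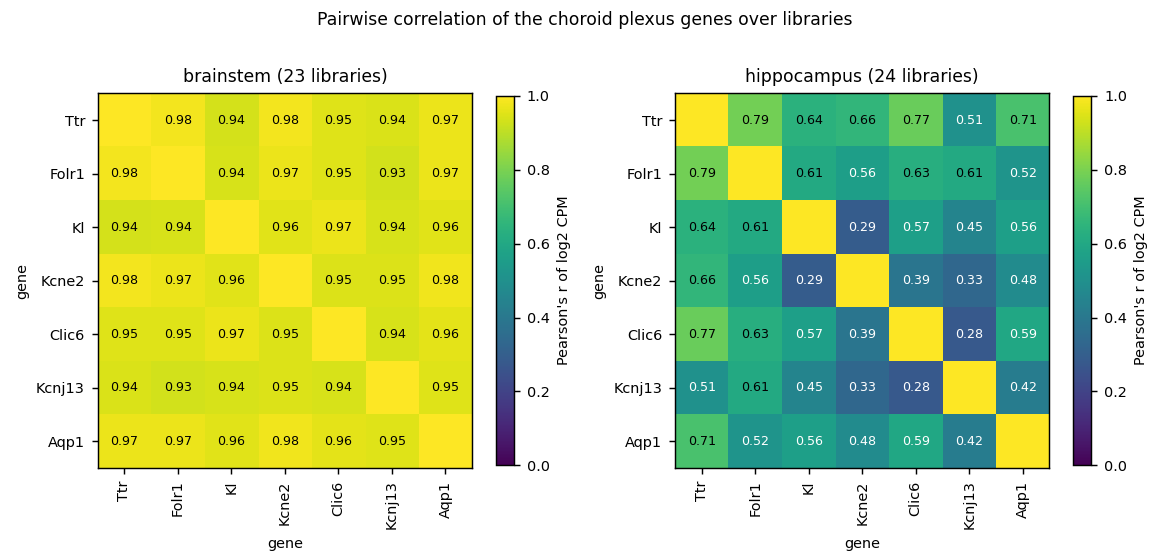
Pearson's r of log2 CPM for each pair of choroid plexus genes (rows and columns) over 23 brainstem and 24 hippocampus libraries, on a colour scale from 0 to 1. All brainstem pairs lie between 0.932 and 0.984 and all hippocampus pairs between 0.281 and 0.788.

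A least-squares line of each gene's CPM on Ttr CPM described how much it rose with Ttr and what level was left at low Ttr. In brainstem the Kcne2 line passed through the origin, with an intercept of −0.00267 ± 0.260 CPM (SE, 23 libraries), a slope of 8.36 ± 0.226 CPM per 1000 CPM of Ttr and 98.5% of the variance on the line. The intercepts of Folr1 (0.343 ± 0.225 CPM) and Aqp1 (0.243 ± 0.157 CPM) came to 13.5% and 11.1% of their median levels. Their slopes were 5.08 ± 0.196 and 3.88 ± 0.137 CPM per 1000 CPM of Ttr. Kl and Clic6 had intercepts of 3.65 ± 1.98 and 3.26 ± 0.866 CPM, which came to 37.7% and 46.5% of their median levels. Their slopes were 21.7 ± 1.72 and 11.3 ± 0.753, and the lines held 88.4% and 91.5% of the variance. Kcnj13 had an intercept of 0.418 ± 0.170 CPM, 61.8% of its median and the highest such share, and a slope of 2.40 ± 0.148. With TG_SD replicate 2, the library highest in Ttr, left out, Kl and Clic6 had intercepts of 2.47 and 2.62 CPM and slopes of 25.0 and 13.1. The Folr1 intercept then fell to 0.219 CPM, that of Kcne2 was −0.000212 CPM, and those of Aqp1 and Kcnj13 rose to 0.307 and 0.422 CPM.

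In hippocampus the intercepts over all 24 libraries made up most of the median level of Kl, Clic6, Kcnj13 and Aqp1. That of Kl was 21.6 ± 0.642 CPM, 94.6% of its median level, and that of Clic6 was 2.97 ± 0.355 CPM, or 76.4% (SE, 24 libraries). The shares were 66.8% for Kcnj13, 54.6% for Aqp1, 42.5% for Folr1 and 17.8% for Kcne2. The slopes on Ttr were 30.2 ± 7.81 for Kl, 18.8 ± 4.32 for Clic6, 8.64 ± 1.20 for Folr1, 5.10 ± 0.616 for Kcne2, 5.02 ± 0.988 for Aqp1 and 1.95 ± 0.521 CPM per 1000 CPM of Ttr for Kcnj13. Without the library highest in Ttr, WT_SD replicate 5, the Kcne2 slope was 3.14 and the Aqp1 slope 7.79. The Aqp1 intercept then fell from 0.239 to 0.111 CPM, no longer most of its median level of 0.438 CPM. The Kcnj13 intercept fell from 0.144 to 0.113 CPM. The lines thus rested in part on that library, and they were not compared between regions by a test.

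**Figure D3:**
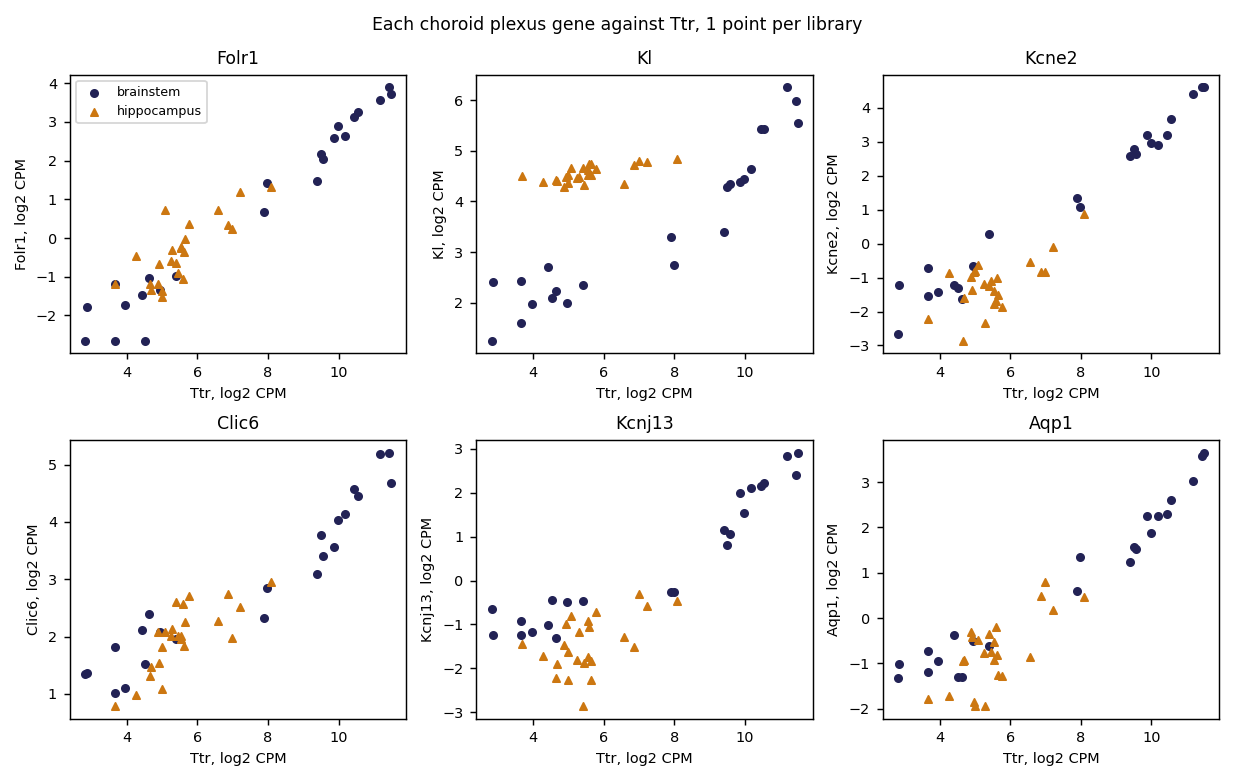
Level of 6 choroid plexus genes (y axis) against Ttr (x axis), both in log2 CPM with a prior count of 2; circles are 23 brainstem and triangles 24 hippocampus libraries. Hippocampal Kl stays between 19.5 and 28.3 CPM, above the brainstem libraries of similar Ttr, whereas Kcne2, Folr1 and Aqp1 of both regions lie in a similar band.

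Whether genotype or diet moved the genes was read from fits to all genes (edgeR quasi-likelihood test with Benjamini-Hochberg adjustment, 4 surrogate variables, called at an adjusted p up to 0.05 and a log2 fold change of at least 0.3 in size). Testing was limited to genes whose mean count reached 50 or more, which kept Ttr, Kl, Kcne2 and Clic6 in brainstem and Ttr, Kl and Clic6 in hippocampus. In brainstem 0 of 4 genes were called in each contrast, beside 0.142% of all tested genes for TG_SD/WT_SD, 0.0525% for TG_HFD/WT_HFD, 0% for WT_HFD/WT_SD, 0.0075% for TG_HFD/TG_SD and 0.0075% for the interaction. In this fit none of the 4 had an unadjusted p under 0.05 in edgeR, beside 643 to 1398 of all 13340 tested genes by contrast. DESeq2 called 0 too. In hippocampus 0 of 3 genes were called, beside 0.098%, 0.226%, 0%, 0% and 0% in the same order of contrasts, and DESeq2 again called 0. There Ttr had an unadjusted p under 0.05 in WT_HFD/WT_SD and Clic6 in TG_HFD/TG_SD, where 851 and 940 of all 13272 tested genes did. A share of 0 called among so few genes lies near the shares called over all tested genes.

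By the raw levels, 0 of the 7 genes had groups that did not overlap in any of the 4 contrasts of either region. Among all tested genes the share without overlap was 0.532% for TG_SD/WT_SD, 0.682% for TG_HFD/WT_HFD, 0.427% for WT_HFD/WT_SD and 0.172% for TG_HFD/TG_SD in brainstem. In hippocampus it was 0.264%, 4.15%, 0.467% and 0.0226%.

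In brainstem the fitted differences of Ttr were small but loosely bounded. The log2 fold change was 0.07 (SE 0.331) for TG_SD/WT_SD, −0.03 (SE 0.337) for TG_HFD/WT_HFD, 0.06 (SE 0.335) for WT_HFD/WT_SD and −0.03 (SE 0.319) for TG_HFD/TG_SD. The median SE over all tested genes was 0.0685 in the first of these contrasts. Without surrogate variables the same 4 values were 0.68, −0.50, 0.41 and −0.77, with SE from 1.30 to 1.38. Kl gave −0.29 (SE 0.184) and Kcne2 0.22 (SE 0.286) for TG_SD/WT_SD, and for TG_HFD/WT_HFD they gave 0.12 (SE 0.210) and −0.23 (SE 0.309). The lowest edgeR adjusted p of any brainstem gene of the set, under any setting tried, was 0.0746, for Kcne2 in TG_HFD/WT_HFD with no filter on counts, where its log2 fold change was −1.03 with an edgeR unadjusted p of 0.00141. With no filter, Kl and Clic6 had edgeR unadjusted p of 0.00506 and 0.0199 for TG_SD/WT_SD, with log2 fold changes of −0.53 and −0.38 and adjusted p of 0.531 and 0.598. With 2 surrogate variables, Kcne2 and Clic6 gave −1.97 and −1.14 for TG_HFD/WT_HFD, with edgeR adjusted p of 0.262 and 0.268.

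The 4 brainstem surrogate variables, which are meant to stand for variation not tied to the groups, took up almost all of this spread. They carried 96.6% of the within-group variance of Ttr, 94.96% of Folr1, 95.6% of Kl, 96.9% of Kcne2, 97.3% of Clic6, 94.6% of Kcnj13 and 97.0% of Aqp1, where the median tested gene had 59.0%. Ttr correlated with the second and the third of them, with r of 0.61 and −0.74 over 23 libraries. The 4 hippocampal surrogate variables carried 3.49% of Ttr, 2.66% of Aqp1, 8.21% of Folr1, 11.7% of Clic6, 12.3% of Kcnj13, 13.8% of Kcne2 and 32.2% of Kl, with a median of 47.1%. Hippocampal contrasts therefore kept nearly all of the spread in Ttr. The surrogate variables were computed from the tested genes, which held Ttr, Kl, Kcne2 and Clic6 in brainstem and Ttr, Kl and Clic6 in hippocampus. The other genes of the set were under the count filter and did not enter them. Whether the surrogate variables also took up differences between the groups was not tested. In brainstem TG_HFD/WT_HFD, 2624 tested genes had an edgeR unadjusted p under 0.05 without surrogate variables and 747 with 4. In TG_SD/WT_SD this count rose instead, from 819 to 1398. It went from 882 to 723 in WT_HFD/WT_SD, from 835 to 922 in TG_HFD/TG_SD and from 1037 to 643 for the interaction.

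**Figure D4:**
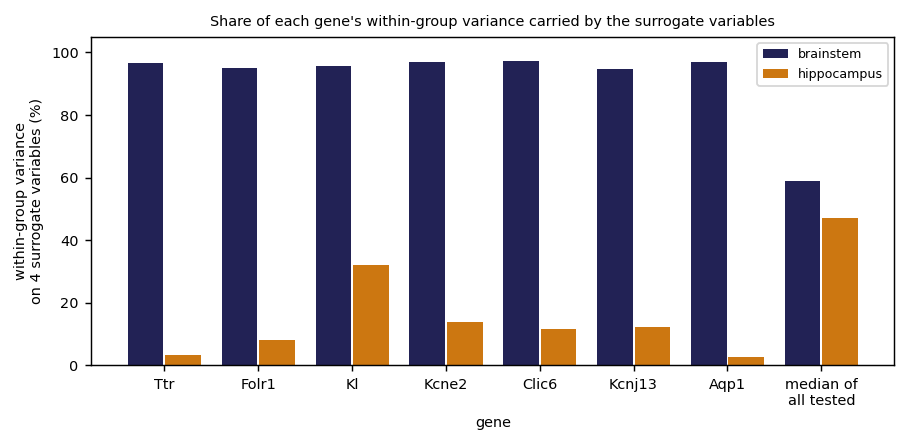
Share of the within-group variance of each choroid plexus gene that lies on the 4 surrogate variables of its region (bars, percent, from 0), with the median of all tested genes at the right. Brainstem bars lie between 94.6% and 97.3% and hippocampus bars between 2.66% and 32.2%.

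In hippocampus the largest fitted difference was that of Ttr on diet in WT mice. Its log2 fold change for WT_HFD/WT_SD was −1.68 (SE 0.521), with an edgeR unadjusted p of 0.00295 and an adjusted p of 0.634. The 6 WT_HFD libraries lay at or under 47.9 CPM, and 3 of the 6 WT_SD libraries lay over it. Without WT_SD replicate 5 the value was −1.003 (edgeR adjusted p 0.775), and over all settings it ran from −1.97 to −1.003 with adjusted p from 0.165 to 0.995. With no filter, Folr1 gave −1.55 (SE 0.431) and Kcne2 −1.68 (SE 0.552) in the same contrast, with edgeR adjusted p of 0.401 and 0.438, from at most 32 reads a library. Kl gave −0.10 (SE 0.0894).

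In TG mice, hippocampal Clic6 gave a log2 fold change of −0.71 (SE 0.235) for TG_HFD/TG_SD, with an edgeR unadjusted p of 0.00488 and an adjusted p of 0.452. Its lowest, median and highest levels were 3.43, 5.31 and 6.51 CPM in TG_SD and 1.97, 3.27 and 4.22 CPM in TG_HFD, so the groups overlapped. Ttr gave −0.51 (SE 0.442) in that contrast. The interaction of genotype and diet was 1.17 (SE 0.692) for Ttr and −0.33 (SE 0.368) for Clic6 on the log2 scale, with edgeR adjusted p of 0.873 and 0.954. Contrasts that share a group are not independent of each other.

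**Figure D5:**
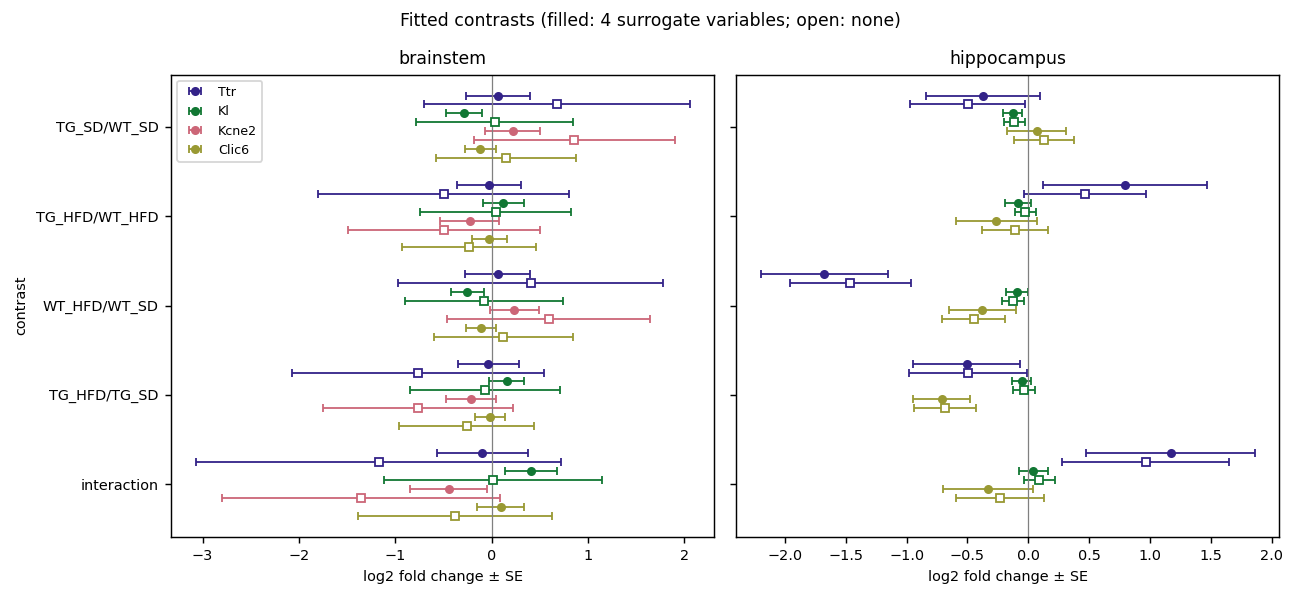
Fitted log2 fold change ± SE (x axis) of the tested choroid plexus genes in each contrast (y axis), with 4 surrogate variables (filled) and with none (open). Brainstem Ttr lies at 0.07 ± 0.331 for TG_SD/WT_SD with surrogate variables and at 0.68 ± 1.38 without them, and hippocampal Ttr lies at −1.68 ± 0.521 for WT_HFD/WT_SD.

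Other genes of the choroid plexus followed the same libraries in brainstem. A list of 33 further choroid plexus genes, of which 15 were tested in brainstem, had a median r of 0.910 with the mean log2 CPM of Ttr, Kl, Kcne2 and Clic6 over 23 libraries, and 13 of the 15 had an r of at least 0.8. Of all tested genes outside the set, 23 reached 0.8, or 0.172%. The highest 5 of the list, tested or not, were Tmem72 (0.980), 1500015O10Rik (0.965), Mfrp (0.965), the tight junction gene Cldn2 (0.963) and F5, coagulation factor V (0.960). Tmem72 ranged from 0.716 to 21.6 CPM and F5 from 0.267 to 25.1 CPM. Of the transcription factors of the list, Otx2, which directs choroid plexus development, had an r of 0.953 and ranged from 0.185 to 12.51 CPM. Msx1 had 0.824 and Lmx1a 0.513, all 3 under the count filter.

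The 10 tested genes outside the set that were most like it in brainstem were Tmem72, 1500015O10Rik, F5, Sostdc1, Car12, Slc4a5, Col8a1, Enpp2, Ace and Lbp, with r from 0.980 down to 0.899. Of these, 9 were in the list of 33. The exception, Car12, a membrane-bound carbonic anhydrase, had an r of 0.952 and ranged from 0.606 to 21.9 CPM in brainstem. In hippocampus Car12 was at 24.3 to 43.3 CPM with an r of 0.173. Enpp2, the secreted lysophospholipase autotaxin, ranged from 514 to 1849 CPM in brainstem, and so kept a high level in libraries with little Ttr. Slc4a5, a sodium bicarbonate cotransporter, ranged from 1.57 to 21.02 CPM, and Sostdc1, a secreted antagonist of BMP and Wnt signals, from 0.400 to 17.1 CPM.

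In hippocampus 6 of the 33 genes were tested, with a median r of 0.245 to the mean log2 CPM of Ttr, Kl and Clic6 over 24 libraries, and 1 of the 6 reached 0.8. That gene, Enpp2, was also the highest of all tested genes with 0.840 (126 to 254 CPM), and it was the 1 gene shared by both regions' lists of 10, or 10% of each. The others of the 10 were Zeb1, BC025920, AU041133, Haus1, Slc2a12, Kcnk2, Heyl, Arrb1 and Osgin2, with r from 0.763 down to 0.614, and none was in the list of 33. Slc2a12, a sugar transporter, had an r of 0.831 in brainstem as well. Of the list of 33, tested or not, the 5 with the highest r were Mfrp (0.918), Enpp2, Slc4a5 (0.835), F5 (0.805) and Tmem72 (0.723), all but Enpp2 with means of about 26 reads or fewer. Otx2 had 0.557, Msx1 0.139 and Lmx1a 0.016.

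The further choroid plexus genes were read from the same fits. In brainstem 0 of 15 were called in each of the 5 contrasts, a share near the 0% to 0.142% called over all tested genes. At most 1 had an unadjusted p under 0.05 in edgeR, beside 643 to 1398 of all 13340 tested genes by contrast. Their median log2 fold change was −0.08 for TG_SD/WT_SD, −0.05 for TG_HFD/WT_HFD, −0.01 for WT_HFD/WT_SD and 0.01 for TG_HFD/TG_SD. In hippocampus 0 of 6 were called, beside 0% to 0.226% of all tested genes, and the medians over these contrasts were −0.07, 0.02, −0.10 and −0.01. The median over all tested genes was within 0.01 of 0 in every contrast.

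Genes that work with the 7 but are not confined to the choroid plexus had correlations near 0 at the median. A list of 11 held Kcnq1, the channel that Kcne2 joins, the inositol transporter Slc5a3, the folate transporters Slc46a1 and Slc19a1, the klotho partner Fgfr1 and its relative Klb, Rbp4 and its receptor Stra6, Aqp4, Clic1 and Clic4. In brainstem 8 were tested, with a median r of −0.03, from −0.53 for Clic4 to 0.50 for Stra6. In hippocampus 9 were tested, with a median of −0.05 and a highest value of 0.476 for Aqp4, the water channel of astrocytes. In both regions 0 were called in any group contrast, near the 0% to 0.142% of all tested genes in brainstem and 0% to 0.226% in hippocampus. At most 3 had an edgeR unadjusted p under 0.05, in hippocampal TG_SD/WT_SD, where 1205 of all 13272 tested genes did.

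Markers of other cells and neighbouring tissue were set beside the same score. In brainstem the 5 tested of 6 cerebellar markers had a median r of 0.448, the highest being Zic1 at 0.687, and the summed level of the 6 ranged from 69.5 to 191 CPM. It ran from 74.5 to 102 CPM in WT_SD, 90.6 to 132 in WT_HFD, 75.3 to 191 in TG_SD and 69.5 to 118 in TG_HFD. The 6 oligodendrocyte markers had a median r of −0.478 and summed to between 12386 and 20854 CPM. The part of both in the spread of Ttr was not tested. Ependymal markers, of which 2 of 10 passed the filter, had a median r of 0.179, 6 tested meningeal fibroblast markers 0.194, 8 endothelial markers −0.04, 5 erythrocyte markers −0.05, 6 astrocyte markers −0.20, 8 medullary neuron markers 0.05, 6 tested hippocampal neuron markers −0.09 and 4 tested thalamic and habenular markers 0.075. In hippocampus the 4 tested erythrocyte markers stood lowest with −0.35. The medians of the other lists with a tested gene lay between −0.07 and 0.174.

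The hippocampal libraries showed the hippocampal neuron markers and lacked those of the medulla. The 8 hippocampal neuron markers summed to 764 to 908 CPM in hippocampus and 95.1 to 136 CPM in brainstem. The 8 medullary markers summed to 426 to 690 CPM in brainstem and 1.12 to 2.65 CPM in hippocampus, where 3 of them were not listed in the count table. Choroid plexus transcripts were present in libraries whose neuronal markers matched their labels.

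Between regions, the fitted levels of Ttr and Clic6 were lower in hippocampus than in brainstem. Because the genes were chosen by their levels in single libraries, this fit is a description, given without p-values or calls for the 7 genes. In a fit to all 47 libraries, 3 of the 7 genes passed the count filter. Of all tested genes, 60.2% were called (edgeR quasi-likelihood test, adjusted over all genes). The log2 fold change of hippocampus over brainstem was −3.63 (SE 0.579) for Ttr, −1.45 (SE 0.292) for Clic6 and 0.31 (SE 0.279) for Kl. For Ttr the fitted value follows mean levels, which the high brainstem libraries raise. Its median level was 253 CPM in brainstem and 43.0 CPM in hippocampus. With no filter, where 50.6% of genes were called, Kcne2 gave −3.88, Kcnj13 −2.83, Aqp1 −2.31 and Folr1 −2.25. In the 17 pairs of same-numbered libraries, fitted with a replicate block, Ttr was at −1.93, Clic6 at −1.11 and Kl at 0.91. There 59.9% of genes were called. The 10 brainstem libraries below the empty interval in Ttr, at or under 42.2 CPM, lay under the hippocampal median of 43.0 CPM, and the other 13 lay over it. Of the 33 further choroid plexus genes, 10 were tested and 10 were called lower in hippocampus, beside 31% of all tested genes, with a median log2 fold change of −1.44 against −0.02 over all tested genes.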

How the data were processed

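Libraries were made from poly(A) RNA with a TruSeq kit and sequenced as single-end reads. The authors aligned reads with STAR 2.7.9a to the Ensembl mouse genome, to which they had added the transgene, and deposited raw counts per gene for each region. The tool that assigned reads to genes is not given in the sources used here. The submitters' processing notes also name FastQC 0.11.9 and DESeq2 1.32.0. 0 columns were left unused. The transgene's identity and levels are not reported here.

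Members, gene lists and tests were chosen with earlier results of these data known. Symbols were matched to gene IDs by the reference tables. Exon lengths came from GENCODE M21, of another build than the reads, so coordinates are given for RefSeq promoter windows alone, in GRCm38.p6. Levels are CPM scaled by TMM factors, and log2 CPM had a prior count of 2. Contrasts were fitted with edgeR 4.0.16 (glmQLFit, glmQLFTest) on the counts in R 4.3.3, per region, with group and 4 surrogate variables (sva 3.50.0), and with genotype, diet and their interaction across regions. A mean count of 50 or more was required for testing, which left 13340 in brainstem and 13272 in hippocampus. DESeq2 1.42.0, RLE scaling, other filters, other numbers of surrogate variables, a replicate block and leaving out each library were tried. The fits were tested on simulated data. Total counts of 10020784 to 17328447 mean that a level under 1 CPM rests on fewer than 20 reads. Floors of 3 reads cover counting error only. Same-numbered libraries deviated together (r over 0.1) in 10 of 26 pairs in brainstem and 15 of 36 in hippocampus, so numbers were not taken as pairs. Across regions, same-numbered libraries of a group had r from −0.084 (TG_HFD replicate 3) to 0.561 (WT_SD replicate 6). The main fit between regions treated all libraries as separate, although the paper describes taking both regions from the animals of each group.

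Named genes were the 7 members, the 10 tested genes most correlated with them per region, and the top 5 and transcription factors of the choroid plexus list. Zic1, Clic4, Stra6 and Aqp4 of other lists were named after their values were seen. Nothing in the labels ties libraries to separate litters or cages, so p-values measure the spread between these samples.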

Additional observations from a re-analysis of the deposited data

Results flagged for a closer look

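In groups of 5 or 6 libraries, 16 values stood apart from the rest of their group by Dixon's criterion, out of 56 combinations of gene, region and group. The criterion was applied to CPM without a log transformation, on genes chosen by such single-library values. No chance rate is therefore set against the count. On the log2 CPM scale, brainstem Ttr was 11.2 in TG_HFD replicate 3, 9.57 in the next library of its group and 2.82 in the lowest. Since the genes move together in brainstem, marks in the same library are not independent. Of the 16, 13 were in brainstem and all were the highest of their group.

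Brainstem TG_HFD replicate 3 stood apart in all 7 genes, with Ttr at 2315, Kl at 76.2, Clic6 at 36.2, Kcne2 at 20.9, Folr1 at 11.8, Aqp1 at 8.04 and Kcnj13 at 6.96 CPM. The next highest TG_HFD library had 760 CPM of Ttr and 20.3 CPM of Kl. Brainstem WT_HFD replicate 7 stood apart in 4 genes, Ttr at 2763, Kl at 63.0, Kcne2 at 24.0 and Aqp1 at 11.7 CPM, over a next Ttr level of 1009 CPM. Brainstem TG_SD replicate 2 stood apart in Kcne2 at 24.1 and Aqp1 at 12.4 CPM. In hippocampus, TG_HFD replicate 5 stood apart in Ttr at 127 CPM, over a next level of 39.2, and in Aqp1 at 1.59 CPM. Hippocampal TG_SD replicate 4 stood apart in Aqp1 at 1.26 CPM. What set these libraries apart was not tested.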

How the results depend on the processing

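No member was called in any within-region contrast under any alternative, in edgeR and in DESeq2, with each library left out in turn. With the replicate block the count was also 0 in each of these contrasts. Over all 13272 tested genes, hippocampal TG_HFD/WT_HFD called 30 in the main fit, 515 with 0 surrogate variables, 634 with 2 and 573 with the replicate block. A count of 0 among so few members lies near such shares and is not a result about the members. Uncalled fold changes did change sign in brainstem, in 48 of 200 comparisons with another setting and in 53 of 460 that left out a library, and in hippocampus in 1 of 150 and 12 of 360. Between regions the number of members called was 2, and 6 with a filter on the total count and with no filter, both of which test more of the members. With the replicate block it was 3, with Kl at 0.91. The brainstem median correlation of 0.952 was 0.932 above and 0.397 below the empty interval in Ttr, a split chosen after seeing the data, and ran from 0.947 to 0.960 with a library left out. In hippocampus that range was 0.4996 to 0.592. Each library correlated best with a library of its own number in 3 of 23 brainstem and 9 of 24 hippocampus cases. With deviations from group means, 5 of the 10 genes most like the set in hippocampus were kept. The within-group SD of hippocampal Kcnj13 was 1.03 with a prior count of 0.5 and 0.667 with 2. Depth limits Folr1, Kcne2, Kcnj13 and Aqp1 in hippocampus, each with a mean under 12 reads.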

Other observations

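Without the 7 genes, the brainstem component of variation that followed them most was the fourth, with 6.95% of the variance and an absolute r of 0.778 with their mean level over 23 libraries. The first component, with 26.7% of the variance, had 0.148. In hippocampus the closest of the first 6 was the sixth, with 3.58% of the variance and 0.429 over 24 libraries.

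Genes of motile cilia on the ependymal list, most of them under the count filter in brainstem, spread widely in their correlation with the choroid plexus score. Cfap126 had an r of 0.792 and Rsph1 0.728, whereas Foxj1, which directs motile cilia formation, had 0.224 and Ccdc153 0.398. Foxj1 passed the filter and the other 3 did not, with Cfap126 at 1.40 to 4.97 CPM and Rsph1 at 0.637 to 5.55 CPM. In hippocampus these 4 genes had 0.042, 0.228, −0.062 and −0.133. The genes were named after their values were seen, and no test was made.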
